A study of Mus musculus with 2 samples.

Results

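Cytosolic ribosomal protein genes were examined in mouse CD8+ T cells grown with bezafibrate, set against cells grown with its solvent DMSO. Members were all probe sets of the array that name exactly 1 gene whose symbol begins Rpl or Rps and a digit, or is Rplp0, Rplp1, Rplp2 or Rpsa, without the Rps6k kinases and without symbols containing -ps. This gave 110 probe sets of 69 genes, of 23521 probe sets of 22180 genes that name 1 gene. A further 14 ribosomal protein genes, among them Rpl10, Rpl12, Rpl13a and Rps2, were read only by probe sets that also name other genes, and are described apart. Of the 69 genes, 32 encode large subunit proteins, 23 small subunit proteins and 3 the ribosomal stalk, and 9 are paralogs or like-named genes. Rps19bp1, which encodes a protein that binds Rps19, and Rps23rg1, a retroposed copy of Rps23, match the letters of the rule but are not subunits of the ribosome.

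The treated culture had received bezafibrate, a fibrate drug that activates the nuclear receptors called PPARs, at 30 µM for the whole culture period, and the control culture DMSO. In both, naive CD8+ T cells had been stimulated by beads bearing antibodies to CD3 and CD28, with recombinant human interleukin-2 at 100 U/mL, and expansion ran to day 13. Each group was 1 array, and the labels name neither mouse strain, age, sex nor the number of animals. There is therefore no replicate spread, no p-value is given, and every difference is between 2 arrays.

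Each cytosolic ribosome joins a small subunit, which reads the mRNA, to a large subunit, which forms the peptide bonds. The stalk of the large subunit, built on Rplp0 with Rplp1 and Rplp2, recruits the elongation factors. Most mRNAs of ribosomal proteins begin with a terminal oligopyrimidine (TOP) tract, through which mTOR signalling and the protein Larp1 control their translation, and T cell activation is known to raise ribosome production strongly.

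Values are log2 signals, and each ratio is the bezafibrate signal minus the DMSO signal, so that a negative ratio means a lower signal with bezafibrate. The probe set with the highest mean signal stood for a gene. Signals of different probe sets were not compared as amounts of RNA, since they depend on the probes. A floor was set at the median signal of all named genes (4.85 with bezafibrate and 4.88 with DMSO), and 64 of the 69 genes passed it on their brighter array. The background limit was the 95th percentile of 1390 olfactory and vomeronasal receptor genes, 4.68 with bezafibrate and 4.71 with DMSO. Within it on both arrays lay 5 members, Rpl3l, Rpl10l, Rpl27a, Rpl32l and Rps15.

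The CD8 T cell label fitted the markers, with Cd8a at 10.68 with bezafibrate and 10.82 with DMSO, and Cd4 within background on both arrays. All 8 measured T cell and CD8 markers had lower signals with bezafibrate, with a median ratio of −0.16. In RNA of a whole culture, fewer cells of a type and less RNA per cell cannot be told apart. Of B cell, myeloid, natural killer and CD4 markers, 1 of 5, 2 of 7, 1 of 3 and 1 of 3 were above the background limits on both arrays. Fcer1g, an Fc receptor chain of natural killer and myeloid cells, had a signal of 5.64 with bezafibrate and 6.57 with DMSO (ratio −0.93), and the B cell receptor gene Cd79b 4.85 with bezafibrate and 5.41 with DMSO (ratio −0.55). The other 3 detected, Cd68, Csf1r and Foxp3, had ratios from 0.01 to 0.07. The linear signals summed over the 3 natural killer markers were 78.4 with bezafibrate and 123 with DMSO, and over the 5 B cell markers 88.7 with bezafibrate and 106 with DMSO. Over the 7 myeloid markers they were 212 with bezafibrate and 210 with DMSO, and over the 3 CD4 markers 60.2 with bezafibrate and 53.8 with DMSO. Ncr1 and Klrb1c of natural killer cells and Cd79a, Ms4a1, Pax5 and Cd22 of B cells were within background on both arrays. The part of such cells in the ribosomal protein signals was not tested.

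Ribosomal protein genes were mostly a little lower with bezafibrate. Of the 69 genes, 52 were lower, 16 higher and 1 equal, while 50% of all 22180 genes were lower. The median ratio was −0.11 over the ribosomal protein genes and 0.00 over all genes, and the middle 50% of ribosomal protein ratios ran from −0.25 to −0.01. At a ratio of 0.32 or more either way, called the limit from here on, 11 genes were lower and 4 higher, or 15.9% and 5.80% of the 69, against a background of 9.06% lower and 7.33% higher among all genes. At 1.5-fold, 1 was lower, Rps18, and 1 higher, Rpl32l, against 1.24% and 1.28% of all genes. The differences were thus small, and most of the members' ratios lay inside the limit. With Rps19bp1, Rps23rg1 and all paralogs and like-named genes left out, 46 of 58 subunit genes were lower, with a median of −0.12.

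**Figure D1:**
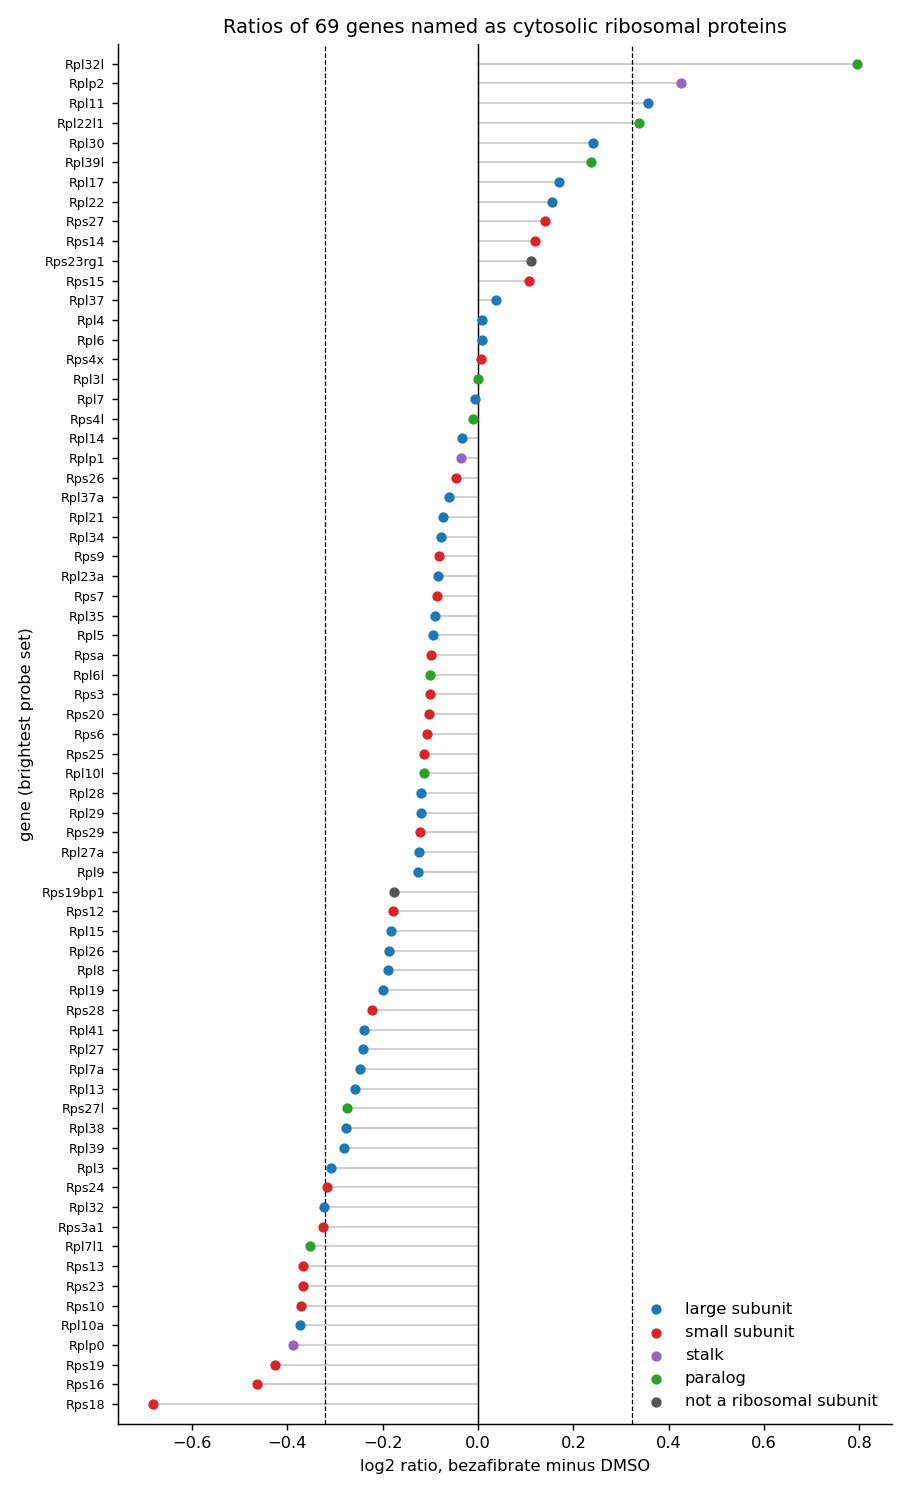
Log2 ratio of bezafibrate minus DMSO (x axis) for the 69 genes, 1 point per gene on its brightest probe set, coloured by subunit; dashed lines mark the limit of 0.32 either way. Points run from Rpl32l at 0.80, a gene within background on both arrays, to Rps18 at −0.68, and 52 lie left of 0.

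Small subunit genes held most of the lower members past the limit. Among 23 genes the median ratio was −0.11, with 19 lower and 4 higher. Past the limit 7 (30.4%) were lower and 0 higher, against 9.06% and 7.33% of all genes. Rps18 had a signal of 7.58 with bezafibrate and 8.27 with DMSO, 1.60-fold lower. Rps19, which is mutated in a share of patients with Diamond-Blackfan anaemia, had 9.84 with bezafibrate and 10.27 with DMSO, 1.34-fold lower. Rps16 had 4.45 with bezafibrate, within background, and 4.92 with DMSO. A bright probe set that names Rps16 with Rps16-ps2 and a predicted gene had 10.82 with bezafibrate and 10.95 with DMSO, a ratio of −0.13. Rps10, Rps23, Rps13 and Rps3a1 completed the 7, with ratios from −0.37 for Rps10 to −0.32 for Rps3a1. The bright genes Rps6 and Rpsa differed little. Rps6, the subunit phosphorylated by the S6 kinases, had 11.95 with bezafibrate and 12.05 with DMSO. Rpsa, also known as the laminin receptor precursor, had 11.27 with bezafibrate and 11.37 with DMSO. The 4 higher genes were Rps27 at 0.14, Rps14 at 0.12, Rps15 at 0.11, within background, and Rps4x at 0.01, so none of them reached the limit.

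Large subunit genes shifted in the same direction with fewer members past the limit. Among 32 genes the median ratio was −0.12, with 25 lower and 7 higher. Past the limit 2 (6.25%) were lower and 1 (3.1%) higher, both shares under the 9.06% and 7.33% of all genes. Rpl10a had a signal of 9.63 with bezafibrate and 10.01 with DMSO, 1.30-fold lower. Rpl32 had 10.71 with bezafibrate and 11.04 with DMSO, and lay just past the limit. Rps24 (ratio −0.318) and Rpl3 (−0.309) lay just inside it, so that the counts depend on ratios a few hundredths apart. Rpl38, which in mouse embryos is needed to translate a subset of Hox mRNAs, had 10.86 with bezafibrate and 11.14 with DMSO. Rpl11 and Rpl5, which with 5S ribosomal RNA bind and restrain Mdm2, went apart on the probe sets that name them alone. Rpl11 had 6.29 with bezafibrate and 5.93 with DMSO, 1.28-fold higher, and Rpl5 had 6.06 with bezafibrate and 6.15 with DMSO. A brighter probe set that names Rpl5 with Rpl5-ps2 had 7.98 with bezafibrate and 7.80 with DMSO. The direction of Rpl5 beside Rpl11 therefore depends on the probe set. Rpl30 at 0.24 and Rpl17 at 0.17 were the next highest large subunit genes. The median of the 23 small subunit genes minus that of these 32 and the 3 stalk genes together was 0.0058. With paralogs and like-named genes counted in their subunits the same difference was −0.016, so its sign depends on which genes are counted.

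The 3 stalk genes did not share a direction. Rplp0 had a signal of 8.58 with bezafibrate and 8.97 with DMSO, 1.31-fold lower, and its second probe set gave the same ratio, −0.39. Rplp1 had 11.26 with bezafibrate and 11.30 with DMSO, and a second probe set had 6.66 with bezafibrate and 7.04 with DMSO. Rplp2 had 5.45 with bezafibrate and 5.03 with DMSO, 1.34-fold higher, on the single probe set that names it alone. Rplp0 was thus lower on both of its probe sets and Rplp2 higher on its only one. Rplp2 is also read by a probe set that names the small nucleolar RNA gene Snora52, with 9.81 with bezafibrate and 9.71 with DMSO.

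The start regions of the genes at both ends of the ranking are shown because the TOP tract lies there. They are taken from RefSeq (build GRCm38.p6), matched by symbol, and run from 10 bases before to 20 bases after the annotated start. The genes shown are from the 6 highest and 6 lowest members above the floor. Rps19 and Rpl10a, which have more than 1 start in RefSeq, are left out. For Rpl30 and Rpl17 no window was taken, so they are missing too. Capitals mark the longest run of C and T. The first 4 genes were among the lowest and the last 4 among the highest.
Rps18, chr17:33955646-33955675, minus strand: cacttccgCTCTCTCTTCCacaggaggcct
Rps16, chr7:28350679-28350708, plus strand: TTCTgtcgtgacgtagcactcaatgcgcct
Rplp0, chr5:115559457-115559486, plus strand: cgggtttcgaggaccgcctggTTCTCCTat
Rps10, chr17:27635225-27635254, minus strand: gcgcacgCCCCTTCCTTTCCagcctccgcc
Rplp2, chr7:141447641-141447670, plus strand: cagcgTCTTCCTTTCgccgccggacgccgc
Rpl11, chr4:136053374-136053403, minus strand: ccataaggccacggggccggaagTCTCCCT
Rpl22l1, chr3:28805498-28805527, plus strand: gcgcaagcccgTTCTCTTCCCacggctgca
Rpl39l, chr16:10170218-10170247, plus strand: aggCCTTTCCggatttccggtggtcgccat

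Pyrimidine-rich starts were found at both ends of the ranking. The longest run measured 11 bases in Rps18 and 13 in Rps10, among the lowest genes, and 10 bases in Rplp2 and in Rpl22l1, among the highest. RefSeq promoters were matched for 45 of the 58 subunit genes. Of these, 19 (42.2%) had a run of at least 8 bases that are all C or T within that window, against 13.0% of all 27025 genes with a promoter. The motif CCGGAAG, searched on both strands from 250 bases before to 50 after the start, was in 21 (46.7%), against 9.93% of all genes, and AAGATGGC, searched likewise, in 2 (4.44%), against 3.19%. The pyrimidine run was read on the gene's own strand, and may overlap the other motifs. Both the run and CCGGAAG were present in 12 genes. The 19 genes with the pyrimidine run had a median ratio of −0.12, and the 26 without it −0.12. These letters are a description of the sequence, and annotated starts can be a few bases off the true ones.

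The members with the brightest probe sets were the most uniform. Of 32 genes with a mean signal of 9 or more, a limit chosen after the values were seen, 30 were lower with bezafibrate and 2 higher, whereas 50% of all 1002 genes this bright were lower. Their median ratio was −0.15, with 4 genes (12.5%) lower past the limit and 0 higher, against 3.19% lower and 2.99% higher among all genes this bright. The 2 higher genes, Rpl4 and Rps4x, had ratios of 0.01. Rpl4 had a signal of 11.65 with bezafibrate and 11.64 with DMSO. The 37 dimmer genes divided into 22 lower, 14 higher and 1 equal, with a median of −0.09. Across the 69 genes, Spearman's rho between ratio and mean signal was −0.29 and Pearson's r −0.40, both over points that share the 2 arrays. Among the 11382 other genes above the floor that rho was 0.08.

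**Figure D2:**
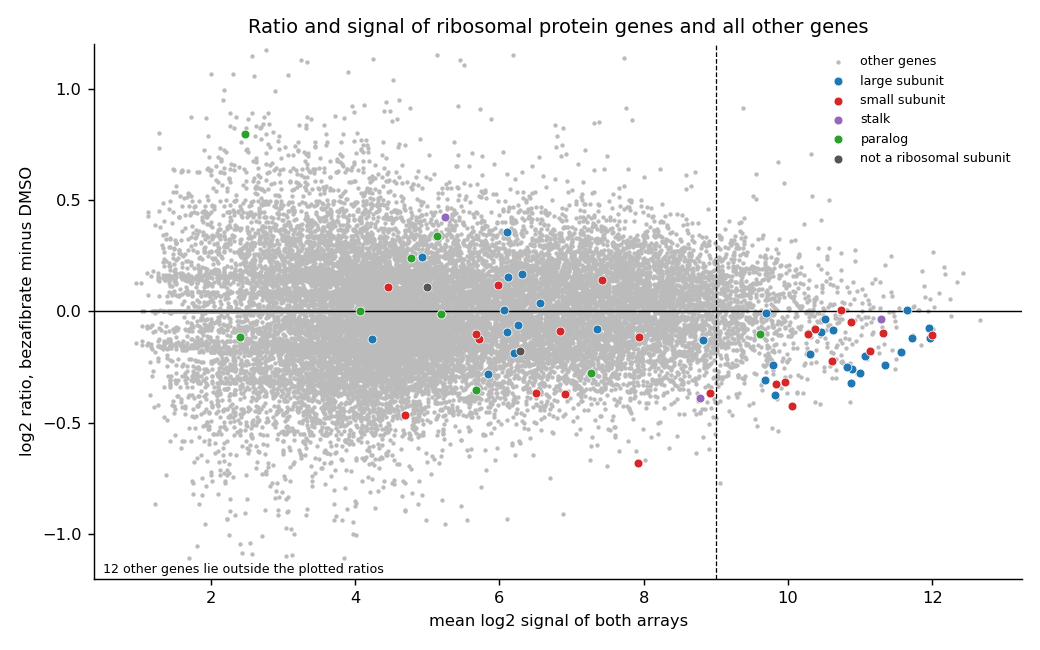
Log2 ratio of bezafibrate minus DMSO (y axis) against the mean log2 signal of both arrays (x axis), with ribosomal protein genes coloured by subunit over all other genes in grey; the dashed line marks a signal of 9. Right of the line 30 of 32 ribosomal protein genes lie below 0, and 12 other genes lie outside the plotted ratios.

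Other short protein-coding genes with bright signals were also lower. Ribosomal protein genes are short, with a median length of 3175 bp against 16152 bp for all genes. At a length of up to 4604 bp, the 75th percentile of the members, and a mean signal of 9 or more, the 88 other named protein-coding genes had a median of −0.17, and 72 were lower and 15 higher. In contrast, the 822 longer protein-coding genes this bright had a median of 0.01, with 376 lower and 442 higher. Not every kind of short and bright gene was lower, since the 17 snoRNA genes among them were all higher. The 25 bright ribosomal protein genes of that length had a median of −0.12, with 24 lower, and the 7 bright and longer ones −0.31, with 6 lower. When the median ratio of genes of like level and length, taken without the members, was subtracted, 33 of 69 ribosomal protein genes lay below 0, against 52 before, and the median was 0.01. On that scale the members as a group were thus level with other genes of their signal and length. The 2 genes lower past the limit were Rps18 at −0.51 and Rps16, near background, at −0.41. The 4 higher past it were Rpl22l1 at 0.41, Rpl11 at 0.44, Rplp2 at 0.50 and Rpl32l, within background, at 0.80. Among the members themselves the ratio did not follow length, with a Spearman's rho of −0.05 over the 69 genes, and the longer bright members had the lower median.

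**Figure D3:**
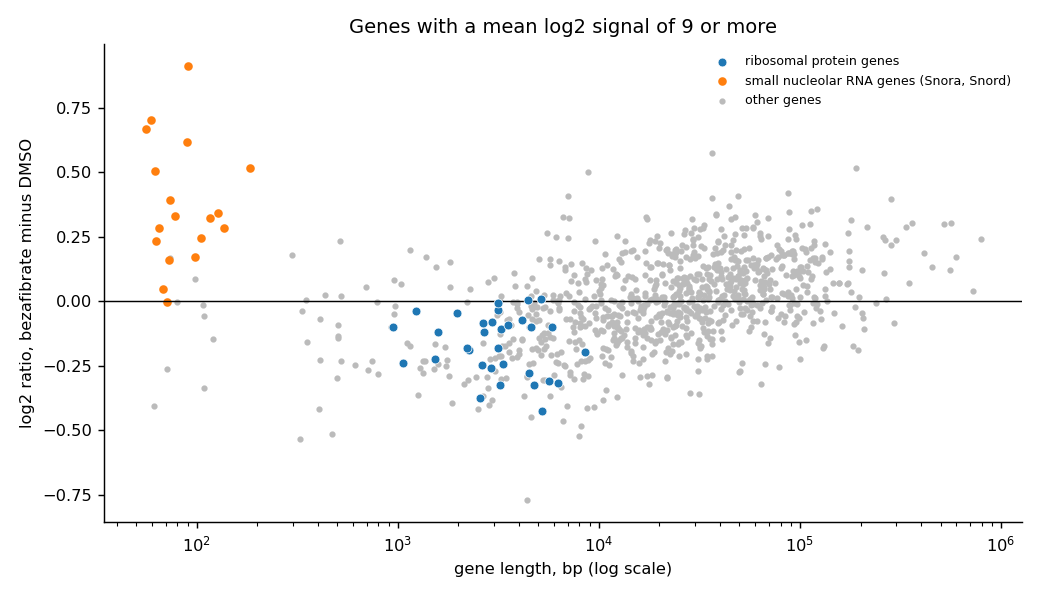
Log2 ratio of bezafibrate minus DMSO (y axis) against gene length on a log scale (x axis) for genes with a mean log2 signal of 9 or more. Of the 32 ribosomal protein genes (blue), 30 lie below 0 and 7 are longer than 4604 bp; other genes are grey, and 17 of 18 small nucleolar RNA genes (orange, symbols beginning Snora or Snord) lie above 0.

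Probe sets of the same gene agreed in only part of the cases. Of 25 genes with several probe sets, 24 had sets with different values, since both sets of Rpl23a held the same numbers, as did 6 sets of Rps12 and 2 of Rps19. In 11 of the 24 all probe sets were lower, in 0 all were higher, and in 13 the signs were mixed. Of these 24 genes 45.8% had 1 sign throughout, against 43.6% of 1049 other genes with several distinct probe sets. Among those others 280 (26.7%) were lower on all sets and 177 (16.9%) higher on all. Rpl41, which encodes the smallest ribosomal protein, was lower on all 5 of its probe sets, with ratios from −0.41 to −0.23. Its brightest set had 11.22 with bezafibrate and 11.46 with DMSO. Rps24 was lower on all 3, from −0.32 to −0.20. Rps3a1 was lower on both, at −0.32 and −0.51, but the second of these sets was within background on both arrays. In these genes every probe set had the direction of the members as a whole.

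Where the signs were mixed, the brightest probe set was lower with bezafibrate in 12 of 13 genes (92.3%), against 242 of 592 other genes with mixed signs (40.9%). Rps18 rested on 1 probe set. Its brightest set had the ratio of −0.68, and the others had −0.11 and 0.06. Rps19 was lower on the bright set, and the dimmer one had 6.17 with bezafibrate and 5.88 with DMSO, a ratio of 0.29. Rpl7a had 10.69 with bezafibrate and 10.94 with DMSO on its brightest set, nearly the same on a second, and 7.50 with bezafibrate and 7.06 with DMSO on the third. Rpl3 had 9.53 with bezafibrate and 9.84 with DMSO on one set and 8.79 with bezafibrate and 8.48 with DMSO on another. The direction of Rps19, Rpl7a and Rpl3 therefore depends on the probe set. Ratios above and below 0 by more than 0.1 were also held by Rpl35 (−0.15 and 0.14), Rpl9 (−0.13 and 0.12) and Rps20 (−0.10 and 0.45). The higher set of Rps20 was within background on both arrays. That of Rpl9 was under the floor, and within background with DMSO. The second set of Rps26, within background on both arrays, had a ratio of 0.89, and the bright one −0.05. Many ribosomal protein genes have processed copies elsewhere in the genome, and how much of each signal comes from a copy was not tested.

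**Figure D4:**
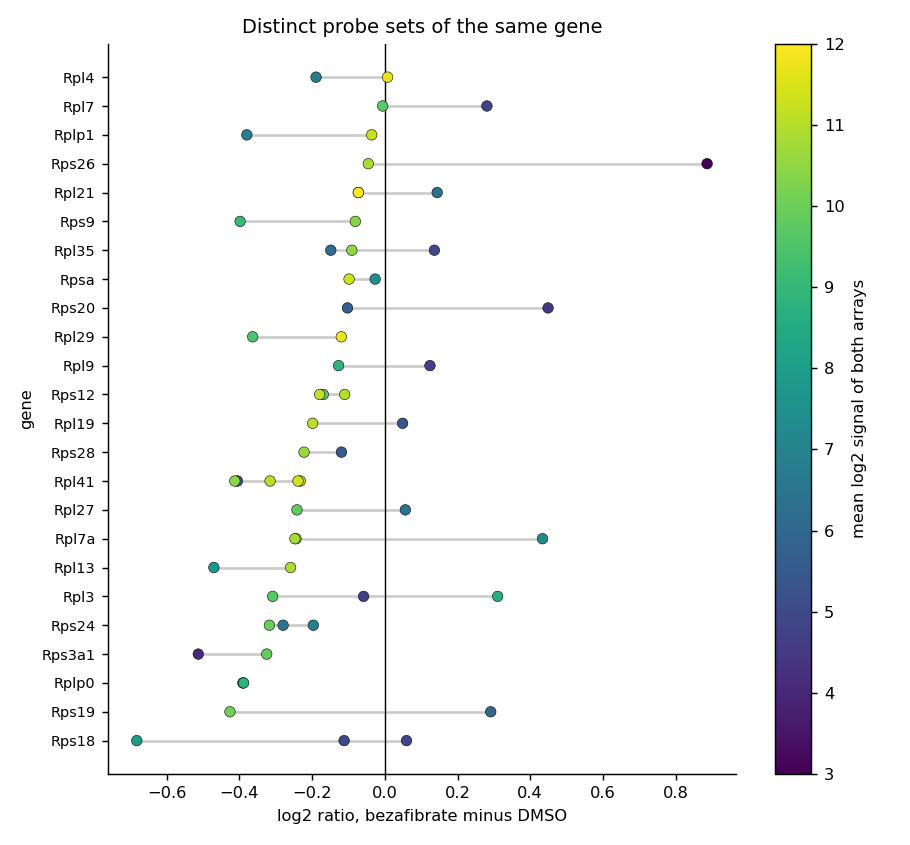
Log2 ratio of bezafibrate minus DMSO (x axis) for each distinct probe set of the 24 genes with more than 1, joined by a line per gene and coloured by mean log2 signal. In 11 genes all points lie below 0, and in 13 the points fall on both sides.

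Paralogs shared the direction of their partners in some pairs and not in others. Rpl22 is required for the development of αβ T cells in mice and represses its paralog Rpl22l1. Rpl22 had a signal of 6.20 with bezafibrate and 6.04 with DMSO, and Rpl22l1 had 5.31 with bezafibrate and 4.97 with DMSO, 1.26-fold higher. Both were thus higher with bezafibrate. Rps27l, a p53-inducible paralog of Rps27, had 7.13 with bezafibrate and 7.41 with DMSO (ratio −0.28), whereas the probe set that names Rps27 alone had 7.50 with bezafibrate and 7.36 with DMSO. A brighter probe set that names Rps27 with Rps27rt had 10.70 with bezafibrate and 10.99 with DMSO (ratio −0.29), close to the ratio of Rps27l. The direction of Rps27 beside its paralog therefore depends on the probe set. Rpl39l, a paralog known mainly from testis, had 4.89 with bezafibrate and 4.65 with DMSO, the second within background, whereas Rpl39 had 5.71 with bezafibrate and 5.99 with DMSO. Rpl39l and Rpl39 had ratios of opposite sign. Rpl7l1, a relative of Rpl7, had 5.50 with bezafibrate and 5.85 with DMSO (ratio −0.35), against −0.01 for Rpl7. Rps4l and its X-linked partner Rps4x hardly differed between the arrays, with ratios of −0.01 and 0.01. Rpl10l, known from testis, and Rpl3l, known from striated muscle, were within background on both arrays, and so was Rpl32l, the member with the highest ratio, at 2.87 with bezafibrate and 2.08 with DMSO. Rpl6l had a ratio of −0.10. Over the 9 genes, 5 were lower, 3 higher and 1 equal, with a median of −0.01.

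Probe sets that name a ribosomal protein gene together with other genes numbered 57. The 48 that name no small nucleolar RNA (snoRNA) gene had a median ratio of −0.11, with 37 lower, 10 higher and 1 equal. Their lowest were Rpl36 with its pseudogene Rpl36-ps12, at 9.57 with bezafibrate and 10.11 with DMSO, and Rps2 with Gm10420 and Gm5978, at 6.69 with bezafibrate and 7.22 with DMSO. Introns of many ribosomal protein genes encode snoRNAs, which guide the modification of ribosomal RNA, and 9 of the probe sets name such a snoRNA with its host. Of these 9, 8 were higher with bezafibrate, 1 was equal and 0 were lower, with a median of 0.19. The probe set of Rps3 and Snord15b had 9.54 with bezafibrate and 8.88 with DMSO, 1.59-fold higher, whereas Rps3 alone had 10.23 with bezafibrate and 10.33 with DMSO. That of Rps13 and Snord14a had 8.10 with bezafibrate and 7.66 with DMSO, whereas Rps13 alone had 8.73 with bezafibrate and 9.10 with DMSO. That of Rpl13 and Snord68 had 8.04 with bezafibrate and 7.79 with DMSO, whereas the brightest set of Rpl13 had 10.76 with bezafibrate and 11.02 with DMSO. In these 3 genes the snoRNA-naming probe set and the host gene's own differed in sign, whereas for Rplp2 both were higher. For Rps13, a set that names Gm15483 and Rps13-ps4 but no snoRNA was also higher, with a ratio of 0.39. Another set naming the same genes was lower, at −0.20. Whether snoRNA or host mRNA gave the signals of the snoRNA-naming sets was not tested.

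Other parts of the translation machinery did not all move like the ribosomal proteins. For the counts past the limit given here, the shares over all genes were 9.06% lower and 7.33% higher. Elongation factors and other genes with TOP mRNAs had a median ratio of −0.09, with 11 of 15 lower and 0 past the limit either way. Tpt1 at −0.27 and Eif3h at −0.25 were lowest, and Fau, whose product is processed to a small subunit protein, had a signal of 10.45 with bezafibrate and 10.70 with DMSO. Eef1a1 at 0.02 and Pabpc1, the cytoplasmic poly(A)-binding protein, at 0.15 were highest. Initiation factors divided into 9 lower and 10 higher, with a median of 0.01, and Eif3k at −0.38 and Eif4a2 at 0.33 were the 2 past the limit. Eif3i at −0.16 was the next lowest and Eif2s2 at 0.32, just inside the limit, the next highest. Ribosome biogenesis factors had a median of 0.06, with 21 of 35 higher and 13 lower. Gar1, a protein of H/ACA snoRNA particles, had 7.23 with bezafibrate and 6.86 with DMSO, and Nolc1, a nucleolar chaperone of such particles, had 8.38 with bezafibrate and 8.04 with DMSO. These were the 2 biogenesis genes higher past the limit, and 0 were lower past it. The lowest were Nob1, an endonuclease that matures 18S ribosomal RNA, at −0.22, and Nhp2, like Gar1 a protein of H/ACA particles, at −0.21. RNA polymerase I genes had a median of 0.03, with 8 of 14 higher, among them Taf1a at 0.36 and Polr1a, the largest subunit, at 0.30. Polr1c and Cd3eap, both subunits of the enzyme, were lowest, at −0.21 each. The 14 measured growth regulators had a median of −0.06, and 11 were lower and 3 higher. Eif4ebp1, a translation repressor inhibited by mTOR, had 6.65 with bezafibrate and 6.99 with DMSO, and Tsc1, which as part of the TSC complex restrains mTOR, had 6.22 with bezafibrate and 6.54 with DMSO. These were the 2 past the limit. Mtor, with 7.53 with bezafibrate and 7.30 with DMSO, and Larp4 at 0.13 were highest. Biogenesis and initiation genes are longer than ribosomal protein genes, with medians of 12682 and 17372 bp, and the part of length in these contrasts was not tested.

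Set beside other large complexes, the ribosomal proteins were not alone in their direction. Among all genes, 9.06% were lower and 7.33% higher past the limit. Of 71 mitochondrial ribosomal protein genes, 54 were lower, with a median of −0.12, and 12 (16.9%) were lower past the limit and 0 higher. Their lowest genes were Mrpl32 at −0.75 and Mrps16 at −0.69, and their highest above the floor Mrps10 at 0.26 and Mrps17 at 0.24. Complex I genes, taken by symbol alone with assembly factors included, had a median of −0.23, with 34 of 42 lower. Past the limit 16 (38.1%) were lower and 2 (4.76%) higher, Ndufs1 and Ndufa4l2. Ndufa4l2 was within background on both arrays, at 3.91 with bezafibrate and 3.53 with DMSO. Ndufb11 at −0.59 and Ndufs8 at −0.56 were lowest, and above the floor Ndufs1 at 0.36 and Ndufaf6 at 0.11 were highest. Proteasome genes, taken by symbols beginning Psma, Psmb, Psmc or Psmd so that Psmc3ip was counted, had a median of −0.08, with 33 of 39 lower. Past the limit 3 (7.69%) were lower and 1 (2.56%) higher, Psma5, which lay under the floor. Psmb5 at −0.41 and Psmb10 at −0.37, both of the catalytic core, were lowest, and above the floor Psma3 at 0.07 and Psmd2 at 0.07 were highest. The shift of the cytosolic ribosomal proteins thus lay between that of the proteasome and that of complex I, and differences between these lists were not tested.

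**Figure D5:**
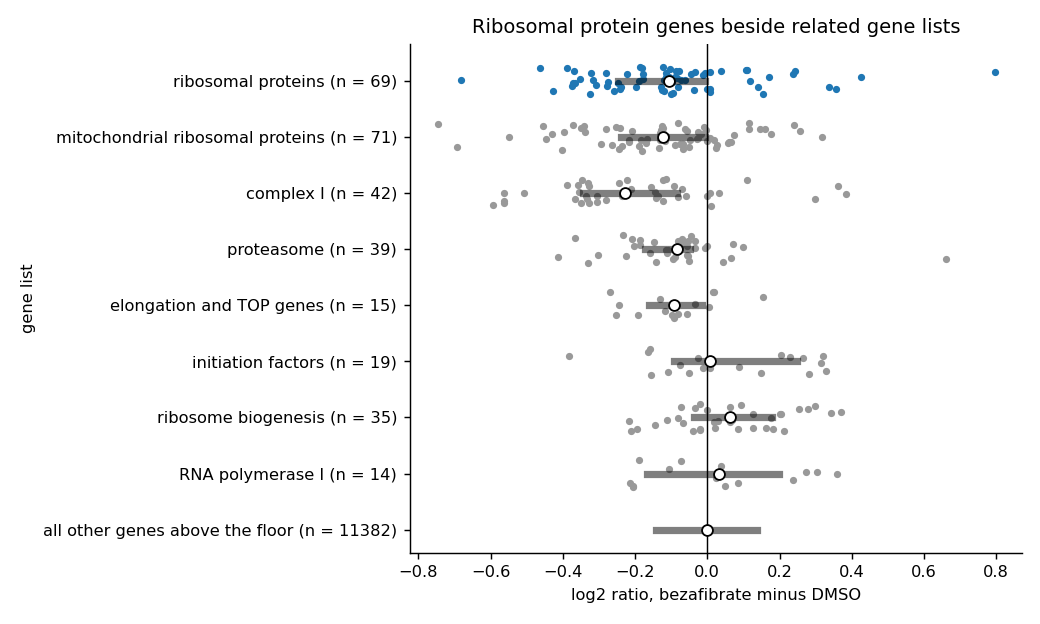
Log2 ratio of bezafibrate minus DMSO (x axis) for the genes of each list, with points for genes, a white circle for the median and a grey bar for the middle 50%; all other genes above the floor are shown by median and bar. Median ratios run from −0.23 for complex I to 0.06 for ribosome biogenesis genes, with the 69 ribosomal protein genes at −0.11.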

How the data were processed

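The authors deposited RMA log2 signals, 1 per probe set; the submitters' processing notes name Affymetrix Expression Console, and its version and any genome build are not given. RMA equalises signal distributions between arrays, so ratios are relative to the other genes. The log2 scale was inferred from the range of the values. Of 41801 probe sets, 33793 had values; 23521 of these named 1 gene in the platform annotation, 1814 several and 8458 none.

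The ratio of bezafibrate over DMSO was taken for the brightest probe set of each gene. With 1 array per group, the number of arrays limits the precision and nothing was tested. Gene lengths came from RefSeq (GRCm38.p6), for 99.8% of genes, and promoter sequences from the same release.

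Members and lists were chosen with earlier results of these data known. Named genes were the 6 highest and 6 lowest members above the floor, genes whose probe sets disagree by more than 0.1 either side of 0, and a fixed set of subunits and paralogs. Of the other lists described, the 2 highest and 2 lowest genes above the floor were named. Those outside the rule (such as Fau, Rps24, Rpl41, Rps3a1, Rps26, Rps3, Rps13, Rpl13) were chosen after their values were seen. Alternatives were other probe set rules, normalizations, floors and fold limits. Scripts used matplotlib 3.10.9, statsmodels 0.14.6, scipy 1.17.1, pandas 2.3.3 and numpy 2.4.6 under Python 3.11.15, and were tested on simulated data.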

Additional observations from a re-analysis of the deposited data

Results flagged for a closer look

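Outside the member probe sets, 57 name a ribosomal protein gene together with other genes. Of these, 3 (5.26%) had signals at least 1.5-fold higher with bezafibrate than on the DMSO array, and 0 were at least 1.5-fold lower. Among all probe sets that name 1 gene, 1.29% were at least 1.5-fold higher. The probe set of Rpl30, Gm7429 and Gm6109 had a log2 ratio of 0.772, that of Rpl21 with 5 predicted genes 0.735, and that of Rps3 and Snord15b 0.665. Brighter probe sets that name Rpl30 with other genes had ratios of 0 and −0.067, and the dimmer one that names Rpl30 alone 0.24. No replicate array bears on the 3 sets.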

How the results depend on the processing

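The median log2 ratio of the ribosomal protein genes was negative, from −0.15 to −0.08, under all alternatives run except the following. With each gene set against the median of its class of level and length it was 0.016, and 0.012 when the class medians were taken without the members, an alternative added after seeing the data. Under both of these, 33 genes were lower (52 as deposited), 17 of the 32 bright ones were lower (30 as deposited), and 2 were lower past the limit of 0.32 (11 as deposited). By construction these settings remove what genes of one length and level share. At 1.5-fold, 1 gene was lower and 1 higher, and at 2-fold 0 and 0. With paralogs, like-named genes and non-subunits left out, also added after seeing the data, 2 genes in place of 4 were higher past the limit. The small minus large subunit difference, with the stalk genes counted as large, was then 0.0058 in place of −0.016. The cause of these changes was not tested. Level limits of 8 and 10, added likewise, gave 33 of 35 and 23 of 25 bright genes lower. Of members past the limit, 0 changed sign under the 4 alternatives run per gene. The rule that takes the probe set with the ratio nearest to 0 was not among them. It would take a set with a ratio of 0.06 for Rps18 and 0.29 for Rps19, so the sign of both depends on the probe set. No paired analysis was possible because each group has 1 array, and for the same reason no replicate could be left out. Signal close to background limits what can be said of Rps16, Rpl39l and the 5 genes within it.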

Other observations

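Ribosomal protein pseudogenes with symbols containing -ps, which are not members, were named alone by 15 probe sets. Of these, 8 were lower with bezafibrate, 5 higher and 2 equal, with a median log2 ratio of −0.06, and 1 passed a ratio of 0.32 each way. Among bright genes no longer than 4604 bp, the 17 that RefSeq classes as snoRNA all had higher signals with bezafibrate, with a median of 0.33, whereas 9 of 11 predicted genes and pseudogenes were lower, with a median of −0.23.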
